A study of Mus musculus with 6 samples.

Results

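Genes of sterol and fatty acid synthesis were followed in HL-1 cells, a mouse cardiomyocyte line of atrial origin, after hypoxia and reoxygenation with or without BRL, an agonist of the β3-adrenergic receptor. The genes were taken from a fixed list of 34 symbols, covering the enzymes that make cholesterol and fatty acids, the SREBP factors and their partners, and proteins that move or spare sterols. In the deposited files 33 of the 34 were found by Ensembl identifier among 32739 genes, and 30 of them were among the 12047 genes with enough counts to be tested. Hmgcs1, the enzyme that makes the precursor of mevalonate, was matched to no identifier and was not analysed here. Elovl6, Scd1 and Abcg1 were below the filter on low counts.

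All 6 libraries were made from total RNA of HL-1 cells grown in Claycomb medium and exposed to hypoxia for 6 h and reoxygenated for 1 h. In 3 libraries the medium held 5 µM BRL and in 3 it held vehicle. HL-1 is a single immortalised line and no normoxic group was analysed here, so the comparison is of agonist with vehicle after hypoxia and reoxygenation only. The labels state neither when the agonist was added nor whether the libraries are separate cultures, so the p-values measure the spread between these libraries, which may be technical.

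Cholesterol is built from acetyl-CoA through mevalonate, isoprenoid diphosphates, squalene and lanosterol, while fatty acids are built from the same acetyl-CoA by way of malonyl-CoA and are then elongated and desaturated. Transcription of both sets of enzymes is raised by the SREBP factors, which are held in the endoplasmic reticulum by the Insig proteins and their escort Scap when sterol is plentiful and are released when it is scarce. Heart muscle burns fatty acids as its main fuel and makes comparatively little of them, but its cells need cholesterol for their membranes.

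Total expected counts, the estimated number of reads per gene summed over a library, were 4440168 to 5060049 in vehicle and 6812810 to 8332472 in BRL, so depth did not overlap between the groups. BRL replicate 1 stood apart: 5.03% of its counts were from mitochondrially encoded genes, against 16.5% to 21.9% in the other 5 libraries, and the chi-square per degree of freedom was 89.1 and 76.8 against the other BRL libraries, where these differed from each other by 4.20. Values without that library are therefore given for those of the 30 genes whose log2 fold change moved by over 1.5 times or whose call changed. Cardiomyocyte markers (9 of 9 found, all tested) summed to 6931 to 7687 CPM (counts per 1000000 counts of the library, scaled with TMM factors) in vehicle and 3916 to 5367 CPM in BRL, and smooth muscle markers (5 of 5, led by Acta2) to 3061 to 3455 and 1269 to 2643 CPM, with BRL replicate 1 lowest in both. The 8 adipocyte markers summed to 1.62 to 3.04 CPM over the 6 libraries, with Lep, Cfd and Ucp1 at 0, and the 5 hepatocyte markers to 0.794 to 5.38 CPM, with Apoa1 and Cyp7a1 at 0. Fibroblast, endothelial and leukocyte markers each summed to at most 5.47 CPM, with Dcn, Lum, Tcf21, Emcn, Ptprc and Adgre1 at 0. The part of the changes in the muscle markers in the results below was not tested.

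Of the 30 tested genes of the pathway, 1 passed the threshold. Scd4, a stearoyl-CoA desaturase isoform, fell with BRL, and no gene rose, by the quasi-likelihood F-test of edgeR, with p-values adjusted by Benjamini and Hochberg over the 12047 genes and a threshold of 0.05. Among all genes tested, 1.01% were called higher and 1.79% lower. At an unadjusted p under 0.05, 5 of the 30 genes were higher and 1 was lower, while 11.6% and 10.8% of all genes tested were. The median log2 fold change of the 30 was 0.04, beside 0.005 over all genes tested, with 18 genes above 0 and 12 below, and 28 of the 30 differed by less than 1.5-fold, as did 90.1% of all genes tested. Every BRL library lay above every vehicle library in 7 genes (Mvd, Idi1, Fdps, Sqle, Hsd17b7, Scap and Fasn) and below in 2 (Dhcr7 and Scd4), while over all genes tested these shares were 16% and 15.5%.

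Without BRL replicate 1, edgeR called 4 of the 30 genes higher (Mvd, Fdps, Sqle and Hsd17b7) and 2 lower (Scd4 and Stard4). In that comparison 10.3% of all genes tested were called higher and 10.9% lower, so the counts for the pathway were near the background. The median over the 30 was then 0.05. Hsd17b7 was also called higher by DESeq2, by edgeR's exact test, with no filter on low counts and with each library's trend on length and GC removed.

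**Figure D1:**
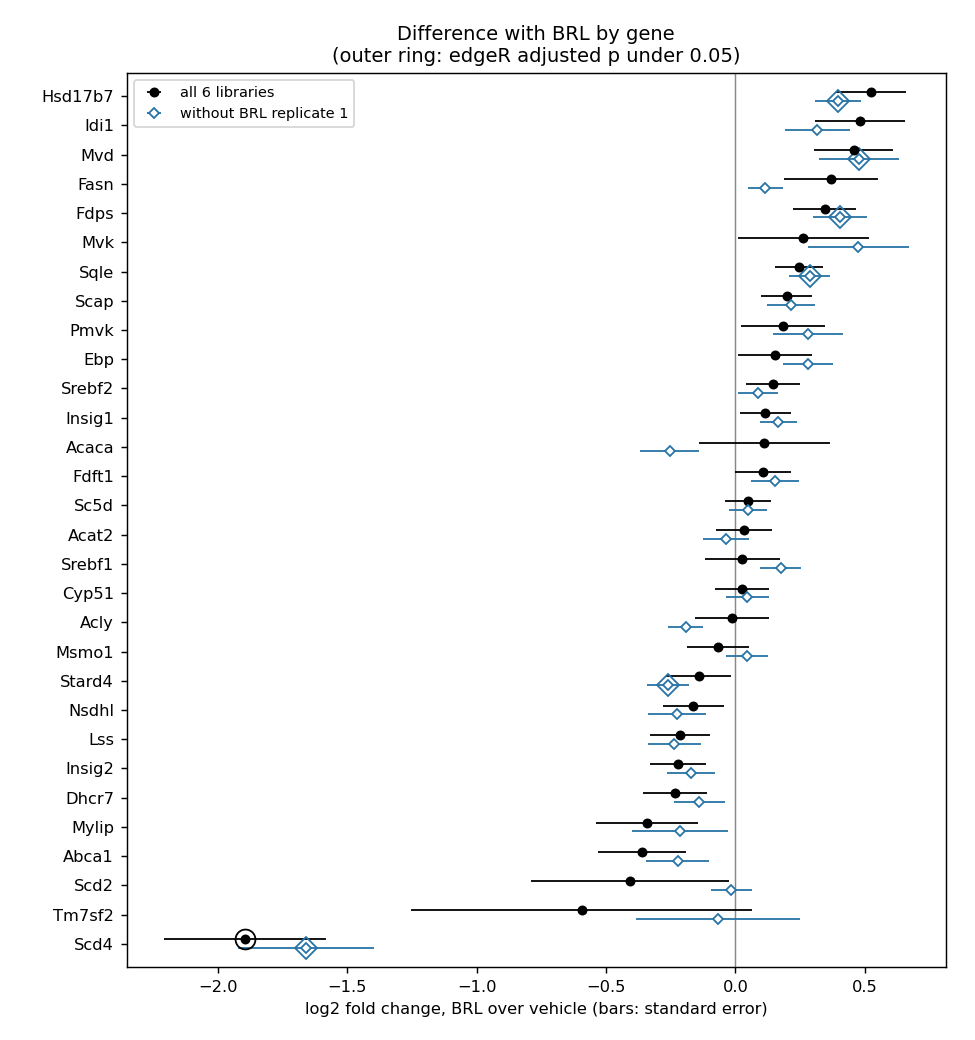
Log2 fold change of each of the 30 tested genes, BRL over vehicle, with all 6 libraries (filled circles) and without BRL replicate 1 (open diamonds), bars showing standard errors and outer rings an edgeR adjusted p under 0.05. Scd4 lies far below the other genes in both fits, at −1.90 and −1.66, and Hsd17b7, Idi1 and Mvd lie at the upper end.

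The proximal promoters of the 3 genes of largest positive fold change and of Scd4, chosen for these values, are shown so that the SREBP-related motifs can be read beside the expression values. They are the 250 bases before the transcription start, 5′ to 3′ on the gene's own strand, from RefSeq (GRCm38.p6), with CCAAT on either strand (the box bound by NF-Y, a partner of the SREBP factors) and CACGTG (an E-box) in capitals.
Hsd17b7, chr1:169969206-169969455, minus strand: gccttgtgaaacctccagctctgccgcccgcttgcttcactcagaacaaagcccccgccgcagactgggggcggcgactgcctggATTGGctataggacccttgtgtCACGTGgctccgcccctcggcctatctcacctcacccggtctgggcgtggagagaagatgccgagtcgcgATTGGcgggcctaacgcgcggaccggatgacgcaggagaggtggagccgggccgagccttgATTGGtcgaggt
Idi1, chr13:8885356-8885605, plus strand: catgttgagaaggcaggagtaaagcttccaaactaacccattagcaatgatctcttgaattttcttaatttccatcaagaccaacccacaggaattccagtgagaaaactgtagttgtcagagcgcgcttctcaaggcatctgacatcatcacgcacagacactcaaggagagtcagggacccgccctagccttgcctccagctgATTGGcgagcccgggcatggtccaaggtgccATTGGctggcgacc
Mvd, chr8:122443423-122443672, minus strand: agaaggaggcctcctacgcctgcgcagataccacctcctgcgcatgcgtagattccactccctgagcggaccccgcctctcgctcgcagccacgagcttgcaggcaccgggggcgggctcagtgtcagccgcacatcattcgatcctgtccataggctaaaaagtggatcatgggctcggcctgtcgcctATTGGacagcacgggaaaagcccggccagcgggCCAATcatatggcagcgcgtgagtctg
Scd4, chr19:44333076-44333325, plus strand: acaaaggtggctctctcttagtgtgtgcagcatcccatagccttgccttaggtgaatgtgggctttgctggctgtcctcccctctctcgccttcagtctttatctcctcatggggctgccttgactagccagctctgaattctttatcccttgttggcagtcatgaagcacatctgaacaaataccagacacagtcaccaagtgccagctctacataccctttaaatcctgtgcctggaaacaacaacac
The windows of Hsd17b7, Idi1 and Mvd hold 4, 2 and 2 such motifs and that of Scd4 holds 0. Among other genes below 0, Lss, Tm7sf2, Msmo1, Nsdhl, Insig2 and Mylip hold CCAAT, Abca1 holds CACGTG and Dhcr7 holds both. Acly, also below 0, holds 0 such motifs before the start, and Scd2 and Stard4 had no window. Acaca and Acat2, which lie above 0, hold 0 as well.

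Windows that also took in the 50 bases after the start were matched by symbol for 27 of the 34 genes and for 27025 genes in all, and were searched on both strands. CCAAT was present in 21 of the 27 (77.8%) and in 41.1% of all genes. CACGTG was present in 6 of the 27 (22.2%) and in 8.09% of all genes. The sterol element searched as TCACNCCAC was found in 1 of the 27, Hmgcs1, and in 1.44% of all genes. CACGTG reads the same on both strands, and the motifs can share letters only where the end of one is the start of another. Among tested genes, the median log2 fold change was 0.04 for the 20 with CCAAT and 0.03 for the 5 without, and the difference between these medians was not tested. A match is a string of letters and not a measured binding site.

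The mevalonate steps, which lead from acetyl-CoA units to farnesyl diphosphate, were 6 tested genes, all with a fold change above 0, and 0 of them passed the threshold. Their median log2 fold change was 0.30. Relative to the vehicle mean on the log2 scale, the group's median lay at 0.20, 0.53 and 0.17 in BRL replicates 1, 2 and 3 and between −0.02 and 0.03 in the vehicle libraries. Fdps, farnesyl diphosphate synthase and the most abundant of the group per transcript length, had 61.9, 63.8 and 63.2 CPM in vehicle replicates 1, 2 and 3 and 73.6, 94.0 and 72.5 CPM in BRL replicates 1, 2 and 3. The groups did not overlap, with BRL replicate 2 well above the other BRL libraries. Its log2 fold change was 0.34 ± 0.12 (SE, edgeR adjusted p = 0.154), and without BRL replicate 1 it was 0.40 (adjusted p = 0.0152). Without BRL replicate 2, the highest library, it was 0.21 (adjusted p = 0.283).

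Mvd, the decarboxylase that yields isopentenyl diphosphate, had 15.5, 16.6 and 15 CPM in vehicle and 20.9, 25.2 and 18.6 CPM in BRL. All BRL libraries were above vehicle, at a log2 fold change of 0.46 ± 0.15 (edgeR adjusted p = 0.136; 0.48 with adjusted p = 0.0425 without BRL replicate 1). Idi1, the isomerase acting on that product, had 32.8, 28.3 and 34.2 CPM in vehicle and 54.0, 44.9 and 34.3 CPM in BRL. BRL replicate 3 was level with the highest vehicle library, so the separation of the groups was as narrow as it can be. The log2 fold change of Idi1 was 0.48 ± 0.17 (edgeR adjusted p = 0.157; 0.32 without BRL replicate 1), and its counts were not whole, meaning that part of its reads was shared with other loci. Mvk, mevalonate kinase and the least abundant of the group per length, had 8.30, 8.81 and 7.51 CPM in vehicle and 6.76, 12.8 and 10.02 CPM in BRL. Its groups overlapped because BRL replicate 1 was lowest of all 6, its log2 fold change was 0.26 with that library and 0.48 without it, and its counts were not whole either. Pmvk, the next kinase, and Acat2, the thiolase that joins acetyl-CoA units, had log2 fold changes of 0.18 and 0.03 (0.28 and −0.04 without BRL replicate 1) with overlapping groups. Mvd, Idi1 and the genes below other than Scd4, Srebf1, Srebf2, Insig1 and the most and least abundant of each group are given by library because of their values.

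**Figure D2:**
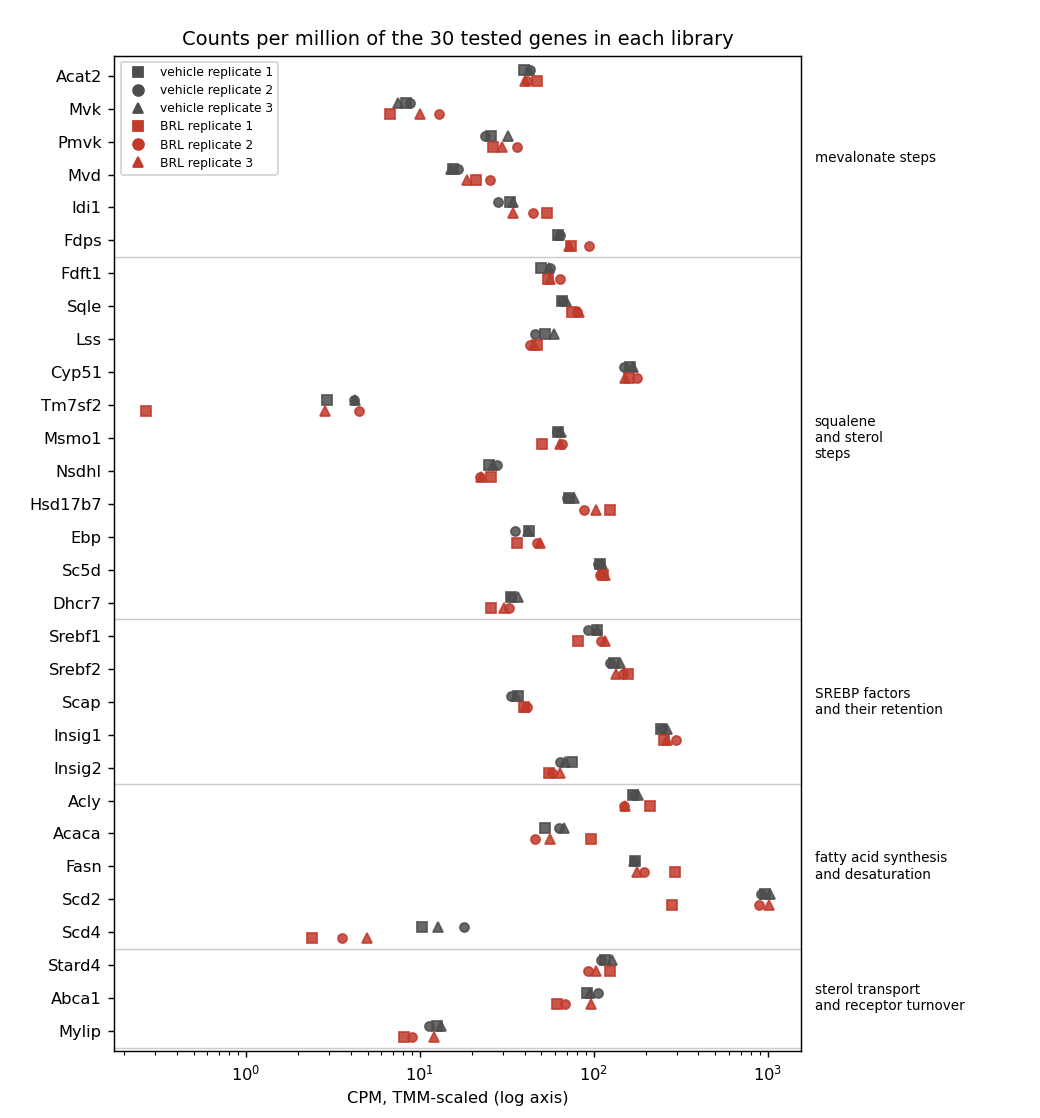
CPM, scaled with TMM library factors, of the 30 tested genes on a log axis, by library, in 5 groups by role; grey symbols are vehicle and red symbols BRL, with squares, circles and triangles for replicates 1, 2 and 3. The red square of Scd2 (280 CPM) and that of Tm7sf2 (0.265 CPM) lie far from the other libraries of the same gene, and for Scd4 all red symbols lie to the left of the grey ones.

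The squalene and sterol steps were 11 tested genes, 6 above and 5 below 0, with a median log2 fold change of 0.03 and 0 past the threshold. Hsd17b7, a reductase needed to strip methyl groups from the sterol ring, had 71.8, 70.5 and 77 CPM in vehicle and 123.9, 87.8 and 103.6 CPM in BRL. The groups did not overlap, and BRL replicate 1 was the highest. Its log2 fold change was 0.52 ± 0.13 (95% interval 0.22 to 0.83, edgeR adjusted p = 0.0763). Without that library the log2 fold change was 0.40 (adjusted p = 0.00722). Sqle, squalene epoxidase and a rate-controlling enzyme of the late pathway, had 65.2, 65.9 and 69.3 CPM in vehicle and 75.2, 79.8 and 82.7 CPM in BRL. The groups did not overlap, but the step was small, with a log2 fold change of 0.25 ± 0.09 (edgeR adjusted p = 0.173; 0.29 with adjusted p = 0.0198 without BRL replicate 1).

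Sc5d, a desaturase late in the pathway, was the most abundant of these genes per length and among the steadiest. It had 109.0, 105.3 and 112.1 CPM in vehicle and 113.4, 108.5 and 115.7 CPM in BRL, with a log2 fold change of 0.05 (95% interval −0.15 to 0.25). Tm7sf2, a sterol reductase and the least abundant, had 13, 20 and 20.8 counts in vehicle and 2, 31.8 and 23.2 counts in BRL. Its low value was that of BRL replicate 1 alone, under the floor of 3 counts, and its log2 fold change moved from −0.59 ± 0.66 to −0.07 without it. Part of the exons of Tm7sf2 overlaps Vps51 on the same strand, and its counts were not whole. Dhcr7, which carries out the last reduction to cholesterol, was lower in all BRL libraries, at 33.6, 33.4 and 36.9 CPM in vehicle and 25.7, 32.4 and 30.4 CPM in BRL (log2 fold change −0.23, or −0.14 without BRL replicate 1, and edgeR adjusted p = 0.306 with all libraries). The remaining 6 genes of these steps (Fdft1, Lss, Cyp51, Msmo1, Nsdhl and Ebp) had overlapping groups and log2 fold changes from −0.21 for Lss, lanosterol synthase, to 0.15 for Ebp, a sterol isomerase. Without BRL replicate 1, Ebp was at 0.28, Cyp51 at 0.05 instead of 0.03 and Msmo1 at 0.05 instead of −0.07.

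The SREBP factors and the proteins that retain them showed no call, with 4 of 5 above 0 and a median of 0.12. Srebf1, which encodes the factor tied mainly to fatty acid enzymes, had 104.6, 92.6 and 104.0 CPM in vehicle and 81.1, 109.3 and 116.6 CPM in BRL. BRL replicate 1 was the lowest and the other BRL libraries the highest of the 6, and the log2 fold change was 0.03 ± 0.14 (edgeR adjusted p = 0.936; 0.18 without BRL replicate 1). Srebf2, which encodes the factor tied mainly to cholesterol enzymes, had 130.7, 124.4 and 142.1 CPM in vehicle and 158.3, 146.8 and 134.2 CPM in BRL, with a log2 fold change of 0.14 (95% interval −0.09 to 0.38; 0.09 without BRL replicate 1). The groups of Srebf2 overlapped in BRL replicate 3.

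Insig1, a retention protein whose own gene is a standard SREBP target, had 242.2, 247.1 and 262.7 CPM in vehicle and 254.3, 295.6 and 265.1 CPM in BRL. These ranges overlapped, and the interval of its log2 fold change, 0.12 (95% interval −0.11 to 0.34), leaves out a rise of 1.5-fold. Scap, the escort and the least abundant of the group per length, was slightly higher in CPM in all BRL libraries. It had 36.5, 33.6 and 35.8 CPM in vehicle and 39.8, 41.5 and 40.2 CPM in BRL (log2 fold change 0.20, edgeR adjusted p = 0.275). Per transcript length the groups of Scap overlapped, and limma on log2 levels per length gave a log2 fold change of 0.05. Insig2, the other retention protein, had a log2 fold change of −0.22 with overlapping groups. The counts of Srebf1 and Scap were not whole, and exons of Srebf1 overlap those of Rai1 on the other strand.

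**Figure D3:**
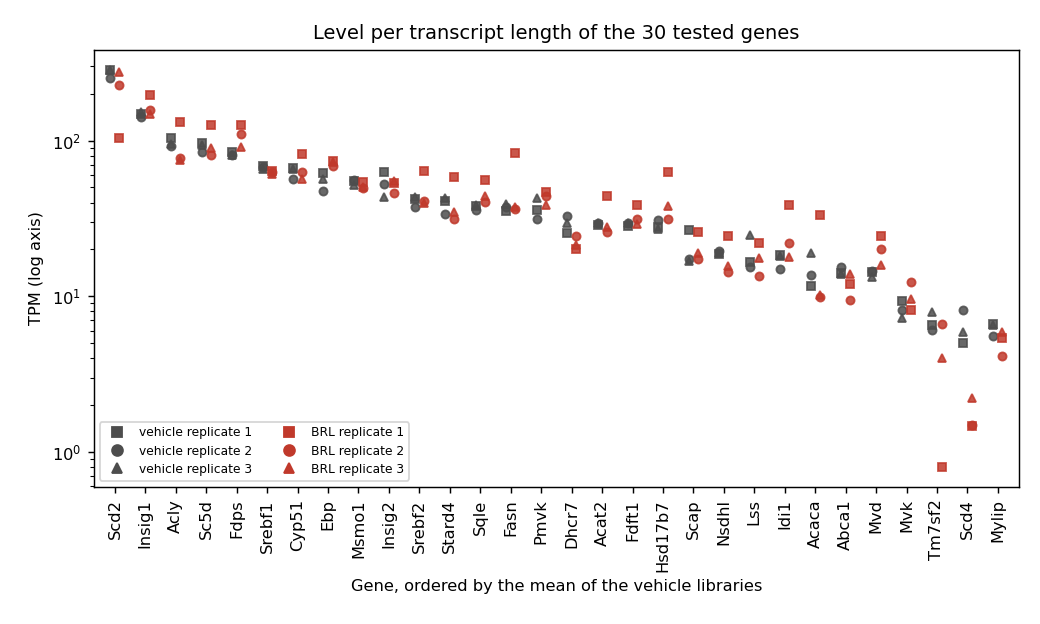
Level per transcript length (TPM, log axis) of the 30 tested genes in each library, ordered by the mean of the vehicle libraries; grey symbols are vehicle and red symbols BRL, with squares, circles and triangles for replicates 1, 2 and 3. Scd2 and Insig1 lead, with vehicle means of 273 and 147 TPM, and the red squares of BRL replicate 1 lie above the other BRL libraries for many genes; TPM carries no TMM factor.

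In TPM, a level per transcript length with all genes of a library summing to 1000000, the pathway was led in vehicle by Scd2 at 273 ± 19.2 TPM (SD, n = 3), followed by Insig1 at 147 ± 5.33, Acly at 96.9 ± 6.06, Sc5d at 91.6 ± 6.52 and Fdps at 82 ± 1.69 TPM. Acly and Sc5d were within a standard deviation of each other. Mvk (8.26 TPM), Tm7sf2 (6.83), Scd4 (6.35) and Mylip (6.25) were the lowest of the tested genes. The fatty acid enzymes were thus unequal by more than an order of magnitude, as Acaca had 14.8 ± 3.84 and Fasn 37.2 ± 2.08 TPM beside the value for Scd2.

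Fatty acid synthesis and desaturation had 5 tested genes of 7, 2 above 0 and 3 below, with a median log2 fold change of −0.01 (−0.19 without BRL replicate 1). The median of the group lay at 0.30 in BRL replicate 1 and at −0.20 and −0.13 in BRL replicates 2 and 3, so BRL replicate 1 went the other way from the rest of its group. Fasn, fatty acid synthase, had 173.3, 171.4 and 169.3 CPM in vehicle and 294.8, 193.1 and 176.8 CPM in BRL. All BRL libraries were above vehicle, but BRL replicate 1 set the size, as the log2 fold change of 0.37 ± 0.18 (edgeR adjusted p = 0.267) was 0.11 without it. Acaca, the carboxylase that makes malonyl-CoA, had 52.7, 63.4 and 67.7 CPM in vehicle and 96.5, 46.2 and 56.1 CPM in BRL. The log2 fold change of Acaca was 0.11 with all libraries and −0.25 without BRL replicate 1, so its sign turned on that library. Acly, which makes cytosolic acetyl-CoA from citrate, had 167.1, 170.8 and 179.2 CPM in vehicle and 211.8, 149.6 and 151.0 CPM in BRL. BRL replicate 1 was again the highest, and for Acly the other BRL libraries were the lowest. The log2 fold change of Acly was −0.01 with all libraries and −0.19 without BRL replicate 1.

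The desaturases, which place a double bond in stearate and palmitate, were carried almost wholly by Scd2, with 98% to 99.6% of the counts of Scd1, Scd2, Scd3 and Scd4 in each library. Scd2 had 965.2, 913.1 and 1026 CPM in vehicle and 280.4, 890.1 and 1019 CPM in BRL. Only BRL replicate 1 was low, and the log2 fold change of Scd2 was −0.41 ± 0.38 (edgeR adjusted p = 0.572) with it and −0.02 without it. The counts of Scd2 were not whole, and its exons overlap Mir5114 on the same strand. Scd1, the main isoform of liver and fat, had 1.02 to 5.08 counts per library, and a transcript of it shares 95.5% identity over 623 bases with Scd2, so even these counts are uncertain. Elovl6, the elongase acting on palmitate, had 1 count in 1 vehicle library and 0 in the other 5, where the floor of 3 counts allows 0.367 to 0.629 CPM.

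Scd4 had 10.3, 17.9 and 12.8 CPM in vehicle and 2.40, 3.54 and 4.97 CPM in BRL. The lowest vehicle library was above every BRL library, and BRL replicate 1 did not stand apart from the other BRL libraries as it did in Scd2. The log2 fold change of Scd4 was −1.90 ± 0.31 (95% interval −2.61 to −1.18, edgeR adjusted p = 0.0205), and without BRL replicate 1 it was −1.66 (adjusted p = 0.000823). The depth behind it was modest, with 45.8, 85.2 and 63.1 counts in vehicle and 18.1, 25.2 and 40.6 counts in BRL. Over 20 alternatives the log2 fold change ran from −2.26 to −1.61 and the adjusted p from 2.24e-06 to 0.128. The call was lost when vehicle replicate 1, 2 or 3 or BRL replicate 2 was left out (adjusted p 0.0586, 0.128, 0.114 and 0.0689).

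The counts of Scd4 were not whole, and its transcripts share 85.9% identity over 969 bases with those of Scd2, which is expressed far above it. Per 100 counts of Scd2, Scd4 had 1.06, 1.96 and 1.25 counts in vehicle and 0.855, 0.398 and 0.488 in BRL. This ratio did not overlap between the groups either, although BRL replicate 1, with the low Scd2 value, was the nearest to vehicle. With the counts of all 4 Scd genes summed as a single gene, the log2 fold change was −0.42 (edgeR adjusted p = 0.555). Scd2 supplies 98% to 99.6% of these counts, so the sum follows Scd2 and cannot inform on Scd4. How reads were divided between the Scd genes in making the expected counts was not tested.

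**Figure D4:**
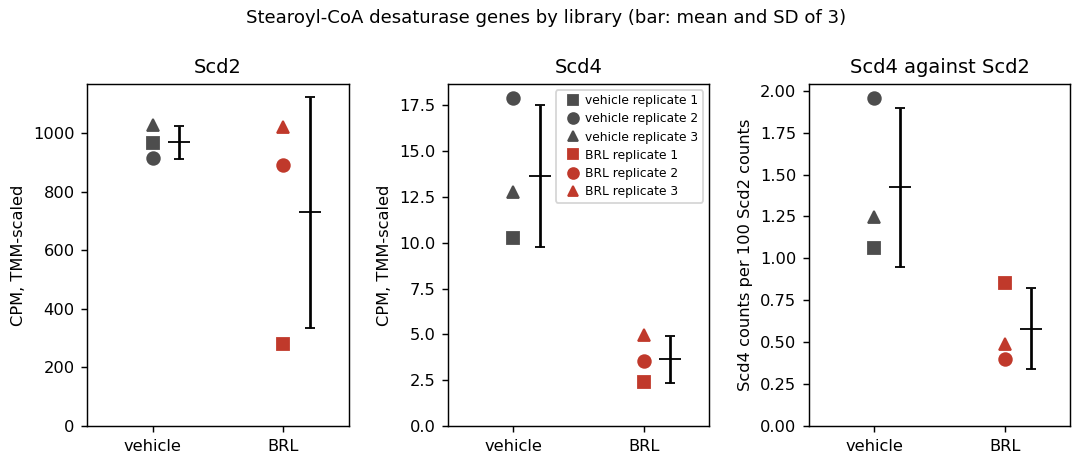
Scd2 in CPM, Scd4 in CPM and Scd4 counts per 100 Scd2 counts, by library, with the mean and SD of 3 libraries beside each group. Scd2 is low in BRL replicate 1 only (280 CPM), whereas Scd4 is below 5 CPM in all BRL libraries and above 10 CPM in all vehicle libraries.

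Genes of sterol transport and receptor turnover were all below 0, with a median log2 fold change of −0.34 over 3 tested genes (−0.22 without BRL replicate 1), and none was called with all libraries. The group's median was −0.58, −0.43 and −0.03 in BRL replicates 1, 2 and 3, so BRL replicate 3 was close to vehicle. Stard4, a carrier that moves cholesterol between membranes and the most abundant here per length, had 115.5, 110.3 and 127.3 CPM in vehicle and 124.3, 93.2 and 102.5 CPM in BRL. Its groups overlapped through BRL replicate 1, and its log2 fold change was −0.14 (edgeR adjusted p = 0.548) with that library and −0.26 (adjusted p = 0.0387) without it. Abca1, the exporter of cholesterol to apolipoproteins and a target of the sterol sensors called LXR, had 90.8, 105.7 and 94.9 CPM in vehicle and 61.3, 68.6 and 96.9 CPM in BRL. BRL replicates 1 and 2 were below all vehicle libraries and BRL replicate 3 was within their range, at a log2 fold change of −0.36 ± 0.17 (edgeR adjusted p = 0.250; −0.22 without BRL replicate 1 and −0.58 without BRL replicate 3). Mylip, a ubiquitin ligase that marks lipoprotein receptors for degradation and is another LXR target, lay at a log2 fold change of −0.34 (edgeR adjusted p = 0.348; −0.21 without BRL replicate 1) with overlapping groups. Abcg1, the least abundant, had 9, 8 and 8 counts in vehicle and 8, 17 and 8 counts in BRL. It was below the filter with all libraries, and without BRL replicate 1 its log2 fold change was −0.09 ± 0.45 (edgeR adjusted p = 0.907).

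The other genes of the pathway were read from a list of 21, all tested. By edgeR 0 of 21 passed the threshold, 2 were higher and 1 lower at an unadjusted p under 0.05 (11.6% and 10.8% of all genes tested), and the median log2 fold change was −0.04. DESeq2 called 0 as well, whereas edgeR's exact test called Aacs higher. Aacs, which activates acetoacetate for lipid synthesis, had 48.0, 42.4 and 43.2 CPM in vehicle and 57.0, 67.7 and 58.8 CPM in BRL, with a log2 fold change of 0.46 ± 0.11 (edgeR adjusted p = 0.0671). Its groups did not overlap, and without BRL replicate 1 it was called, at 0.51 (adjusted p = 0.00239). Acsl3, an acyl-CoA synthetase of lipid droplets, differed by a log2 fold change of 0.42 (edgeR adjusted p = 0.102), and Acss2, which makes acetyl-CoA from acetate, had −0.43 (adjusted p = 0.131). Acsl3 and Acss2 had counts that were not whole. The site proteases Mbtps1 and Mbtps2, which cut the SREBP factors free, had log2 fold changes of 0.12 and −0.04, and the LXR genes Nr1h2 and Nr1h3 had 0.25 and −0.12, all with overlapping groups. Without BRL replicate 1, edgeR called 3 of the 21 higher (Nr1h2, Aacs and Acsl3) and 1 lower (Lpin1), beside 10.3% and 10.9% of all genes tested.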

How the data were processed

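The data are RNA-seq of 6 HL-1 libraries, grouped and numbered by sample title. Hypoxia and reoxygenation times follow the series design; the sample descriptions give 7 h, taken as their sum. The deposited sample files give, for each gene, expected counts from RSEM and a fraction; the fraction times 1000000 was used as TPM, with no further scaling between libraries. Cutadapt, Bowtie, RSEM 1.17 and edgeR were used on NCBIM37, per the submitters' processing notes; their settings and use of strand are not given here. The series table the authors deposited holds log2 values for 13863 genes and was used in an alternative only.

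The test used rounded expected counts and edgeR 4.0.16 in R 4.3.3 (filterByExpr, minimum count 10, TMM factors, group as sole term of a quasi-likelihood F-test), with Benjamini-Hochberg adjustment over 12047 genes at 0.05. Standard errors are the size of the log2 fold change divided by the root of F, and 95% intervals use the t quantile at the test's degrees of freedom. DESeq2 1.42.0 and limma 3.58.1 served as alternatives. Counts within 0.005 of an integer were called whole; 13.2% to 15.6% per library were not, and neither were those of 11 of the 30 tested members. A floor of 3 counts covers counting error only. No pair of libraries of a group agreed within sampling noise by chi-square. Symbols were matched for 96.9% of tested genes. Transcripts were compared with BLAST 2.17.0 on GENCODE M21; this and the promoter table belong to a build other than that of the files, so no coordinates come from the files. The fit was tested on simulated data in which no library stood apart as BRL replicate 1 does, so the simulation does not cover that feature.

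The members, their 5 role groups, the 21 other pathway genes and the marker lists were chosen with earlier results of these data known. Values by library were to be given for Srebf1, Srebf2, Insig1, members past the threshold, members with separate groups and at least 1.5-fold change, and the most and least abundant member per length of each role group; of the other pathway genes, those past the threshold and the 3 of smallest p were to be named. The Mbtps and LXR genes and the other members given by library lie outside that rule and were picked once their values had been seen.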

Additional observations from a re-analysis of the deposited data

How the results depend on the processing

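Over the alternatives run, Scd4, the member called with all libraries, kept its sign. Stard4, called lower without BRL replicate 1, was at 0.03 with limma on log2 TPM, and Acat2, Cyp51, Msmo1, Srebf1, Acly and Acaca, never called, took both signs. The count of members called higher was 1 (Hsd17b7) with DESeq2, with edgeR's exact test, with no low-count filter and with the length and GC trend removed (with or without the replicate block), against 0. Leaving out each library gave 0 to 4 members higher and 0 to 2 lower, and 17 to 1240 genes higher and 15 to 1315 lower in all, the highest of each without BRL replicate 1. Over all genes, DESeq2 called 246 higher and 355 lower, the exact test 418 and 527, no filter 282 and 330, and limma on log2 TPM 30 and 29, against 122 and 216; limma on the deposited log2 values called 109 and 197. The cause of these differences was not tested.

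The titles number replicates 1 to 3 in both groups and state no pairing. Same-numbered libraries deviated from their group means with correlations of 0.099, −0.035 and −0.027 across genes, and only the libraries numbered 1 went best with their own number. Deviations within groups of 3, with BRL replicate 1 far from the others, cannot show whether libraries of the same number share a culture or a batch. With the replicate block 63 genes were called higher and 150 lower, and 0 and 1 of the members. The depth limits Elovl6, Scd1, Abcg1, Tm7sf2 and Scd4 most. The groups differ in depth, and thinning all libraries to the smallest left 0 members called higher and 1 lower.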
